A study of Mus musculus with 8 samples.

Results

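The distal imprinted domain of mouse chromosome 7 was taken as the 1.7 Mb that start at chr7:149500001 on mm9, and its members were the anti-Brdt islands that start within it. An island is a run of genomic windows in which ChIP reads clustered above a control library. The domain held 279 islands of 426082 in the 4 lists: 16 of 36615 in spermatocytes and 61 of 74968 in round spermatids of wild-type mice, and 64 of 112671 and 138 of 201828 in the same cells of BD1del mice. Values for all 4 lists are given below in this order, wild type first and spermatocytes before round spermatids. The interval was chosen by position, with earlier results on these islands known, among them a pair of high-fold islands of BD1del round spermatids that lie inside it. The islands themselves had been selected on their read counts by the peak caller, at a deposited FDR below 0.01. Counts and folds of the members are therefore given as descriptions.

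Genomic imprinting leaves a gene active on only the maternal or only the paternal chromosome, through DNA methylation marks that are set in the germ line. In this domain the proximal cluster holds H19, a maternally expressed non-coding RNA, and Igf2, a paternally expressed growth factor. The distal cluster holds the potassium channel gene Kcnq1, the paternally expressed antisense RNA Kcnq1ot1, and maternally expressed genes such as the cell-cycle inhibitor Cdkn1c and the placental growth gene Phlda2. The methylation mark upstream of H19 is laid down in male germ cells, whereas the mark at the Kcnq1ot1 promoter is laid down in oocytes. Brdt is a testis-specific bromodomain protein of the BET family that binds acetylated histone tails, and its first bromodomain (BD1) is needed for the compaction of spermatid chromatin.

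The cells were meiotic spermatocytes and post-meiotic round spermatids, either from adult wild-type C57BL/6 mice or from mice carrying Brdt BD1del, a deletion of the first bromodomain. Per the labels' protocols, wild-type fractions were pooled from 10 mice, digested with MNase to about 200 bp and precipitated with 0.6 µg of immunopurified rabbit anti-Brdt per 500 µg of chromatin. For the BD1del samples the protocols give gradient fractionation and pooled fractions, with the antibody step as in earlier work. Their strain, age and number of mice, and the part of Brdt that the antibody binds, are not given in the sources used here. The wild-type lists were built on a different read set from the BD1del lists, so genotype and read set cannot be told apart. Of the 8 samples, 4 were ChIP libraries and 4 were inputs, with 1 library in each group, so there was no replicate error, no test between groups, and no separation of genotype from library. Islands carry no expression values, so the labelled cell types were not checked against marker genes.

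Gene models on mm9 were not used here, so islands are given by position, and whether one lies in an exon, intron or UTR is not stated. All 20 genes looked up were found on chromosome 7 in the RefSeq table of the GRCm38.p6 build, which was used for their order alone: H19, Igf2, Ins2, Th, Ascl2, Tspan32, Cd81, Tssc4, Trpm5, Kcnq1, Kcnq1ot1, Cdkn1c, Slc22a18, Phlda2, Nap1l4, Cars, Tnfrsf22, Tnfrsf23, Osbpl5 and Dhcr7. No DNA sequence is printed, because no genome of the mm9 build was used here.

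The whole lists set the scale for these numbers. Islands of the 4 lists held 4506707 to 7310429 ChIP reads. Control libraries exceeded their ChIP libraries in depth by factors of 1.79, 3.79, 5.64 and 5.45. The fold is the deposited ratio of ChIP reads to control reads scaled for this difference. The lowest ChIP count of any island was 26, 17, 21 and 17, so weaker clusters of reads are below what these lists can show. Intervals on folds and shares are exact 95% intervals that cover counting error only, and reads are not independent molecules.

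The 4 lists differed in how their islands were spread over the domain. In wild-type spermatocytes the islands fell into a few groups with long gaps between them, and in BD1del round spermatids they were spread over nearly the whole domain as short islands of high fold. The median island length was 3100, 1400, 1000 and 400 bases, and the median fold 1.77, 3.23, 5.11 and 8.65. Islands of a single 200-base window were 0 of 16, 3 of 61 (4.92%), 7 of 64 (10.9%) and 62 of 138 (44.9%). Over all autosomes these shares were 2.89%, 7.70%, 8.78% and 39.3%. The same order of lengths and folds is seen over all autosomes, where the median folds were 1.70, 2.79, 3.84 and 7.12.

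**Figure D1:**
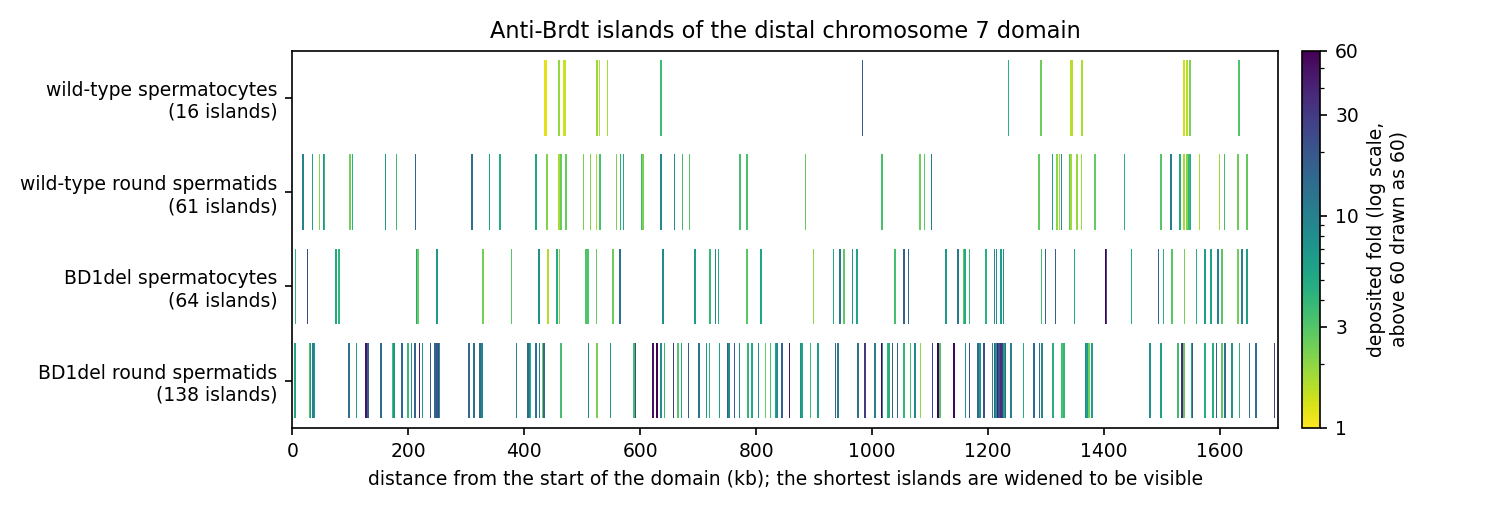
Each vertical bar is an anti-Brdt island of the domain, placed by its distance from the start of the domain in kb (horizontal axis) in 1 row per list, and coloured by its deposited fold on a log scale that ends at 60, with the shortest islands widened to be visible. The 16 islands of wild-type spermatocytes are pale and grouped, and the 138 of BD1del round spermatids are dark and spread, with a dense group near 1220 kb.

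Islands covered 2.81%, 5.27%, 4.19% and 4.31% of the domain. In the flank, the 3.5 Mb from chr7:146000001 to the start of the domain, the values were 2.54%, 3.67%, 4.43% and 5.31%. The domain was thus more covered than its flank in both wild-type lists and less covered in both BD1del lists, with ratios of 1.11, 1.44, 0.945 and 0.810. Against the autosomes, covered to 3.46%, 4.83%, 6.18% and 5.66%, the domain was lower in 3 lists and higher in wild-type round spermatids. When the autosomes were tiled into 1411 windows of 1.7 Mb, 61.0%, 77.5%, 8.01% and 21.4% of the windows were less covered than the domain. The domain lay between the quartiles of the windows in wild-type spermatocytes, above the upper quartile in wild-type round spermatids and below the lower quartile in both BD1del lists.

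**Figure D2:**
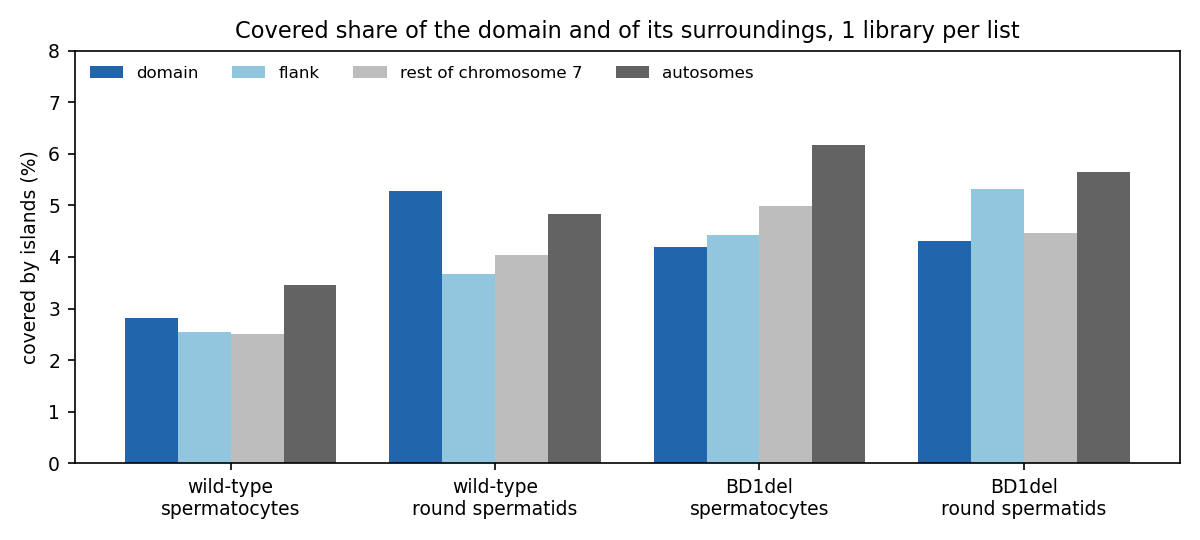
Bars give the percentage of bases covered by islands (vertical axis) for the domain, the flank, the rest of chromosome 7 and the autosomes in each of the 4 lists, with 1 library per list and no error bars. The domain bar is the tallest of its group at 5.27% in wild-type round spermatids and the lowest of its group in both BD1del lists.

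Of the islands that start in the domain or the flank, the domain held 29.1% (17.6 to 42.9%), 41.8% (33.7 to 50.2%), 35.2% (28.2 to 42.6%) and 32.5% (28.1 to 37.2%). The domain makes up 32.7% of that length, a share that lies inside the interval of 3 lists and below that of wild-type round spermatids. This position of wild-type round spermatids depended on the islands taken. Their share was 51.2% (35.5 to 66.7%) with an FDR of at most 1e-10 and 42.6% (33.7 to 51.9%) with a fold of at least 2. The interval took in the length share with at least 10 control reads (41.0%, 32.6 to 49.9%), with islands within 1000 bases merged (39.7%, 31.6 to 48.3%) and with 10000 islands per list (50%, 24.7 to 75.3%). With 10000 islands the BD1del round spermatid interval lay above it instead (53.3%, 34.3 to 71.7%). Islands were neither replicates nor independent of their neighbours, so an interval that leaves out the length share is a description of these libraries.

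Along the domain, bins of 50 kb showed where each list was filled. Of the 34 bins, 23 were without an island in wild-type spermatocytes (67.6%, against 58% of autosomal bins), 8 in wild-type round spermatids (23.5% against 25.2%), 5 in BD1del spermatocytes (14.7% against 10.9%) and 1 in BD1del round spermatids (2.94% against 2.63%). These shares were near those of the autosomes in every list but wild-type spermatocytes, where somewhat more bins were empty. No bin of the domain was covered to 20% in any list. Of autosomal bins 2.86%, 2.5%, 2.23% and 1.35% were, shares at which few or no such bins would be seen among 34. The flank was alike, with 1 such bin of 70 in wild-type spermatocytes and 0 in the other lists. The fullest bins reached 19.6%, 18.0%, 14.4% and 12.4%. All 4 lists had cover in 8 of the 34 bins, and 2 bins had cover in a single list.

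The proximal end of the domain was empty in wild-type spermatocytes. No island of that list lay in chr7:149500001-149934200, a gap of 434.2 kb from the limit of the domain, and the last island before the limit ended at chr7:149477000. Within this gap lay 14 islands of wild-type round spermatids, 10 of BD1del spermatocytes and 37 of BD1del round spermatids. Over the whole domain these lists had 35.9, 37.6 and 81.2 islands per Mb. A second gap of 346.2 kb, chr7:150135801-150482000, held 6, 13 and 29 islands of the same lists. The longest gap of wild-type round spermatids was 185.2 kb, chr7:150601401-150786600, and it held 1 island of wild-type spermatocytes, 11 of BD1del spermatocytes and 23 of BD1del round spermatids. The longest gaps of the BD1del lists were shorter, 133.2 kb for spermatocytes and 99.6 kb for spermatids. Long gaps of wild-type spermatocytes were not particular to the domain. The flank had no island of that list from chr7:148400001 to chr7:148800000. Past the last island inside the domain, which ended at chr7:151133000, the next started at chr7:151534601.

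The islands nearest the limits of the domain were as follows. The last wild-type spermatocyte island before the domain, chr7:149475201-149477000, had a fold of 1.49, and the first inside it, chr7:149934201-149939800, had a fold of 1.21. In wild-type round spermatids the islands on either side of the limit had folds of 3.87 and 10.1, in BD1del spermatocytes 6.47 and 4.13, and in BD1del round spermatids 19.1 and 5.62. At the distal limit the last island inside and the first beyond had folds of 3.08 and 1.59, 2.73 and 2.07, 6.07 and 5.07, and 27.2 and 7.53, in the order of the lists above. The folds of 10.1, 19.1 and 27.2 rested on only 9, 6 and 4 control reads.

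**Figure D3:**
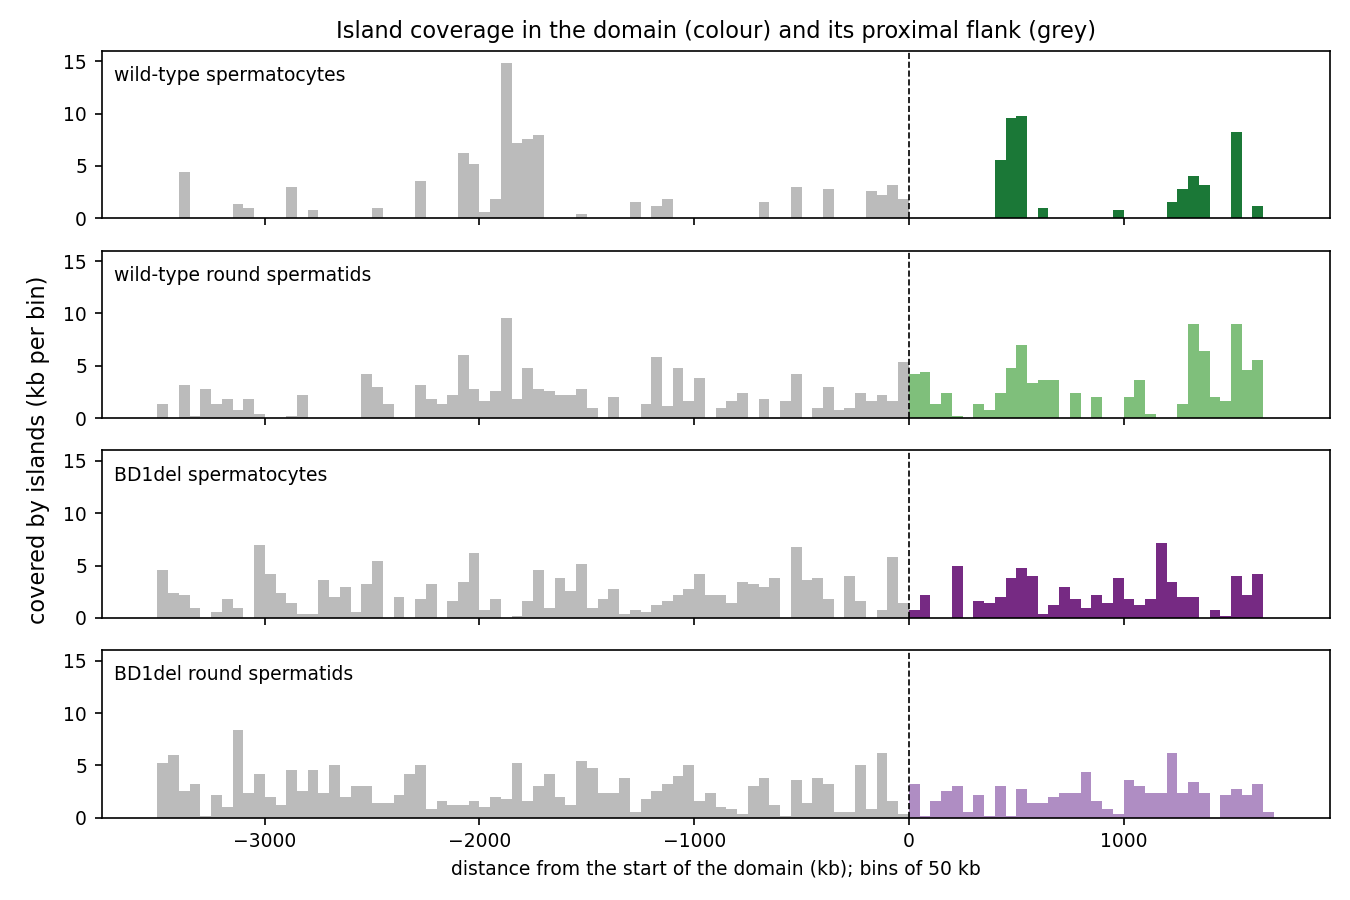
Covered kb per 50-kb bin (vertical axis) is plotted against the distance from the start of the domain (horizontal axis), with 1 panel per list, bins of the domain in colour and bins of the flank in grey. Wild-type spermatocyte cover stands in a few bins of up to 9.8 kb in the domain, with a group of tall bins in the flank as well, while BD1del cover is spread over most bins.

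In wild-type spermatocytes the islands were concentrated in a few stretches of low fold, and those of wild-type round spermatids were spread more widely. In wild-type spermatocytes 3 bins held 57.7% of the covered bases of the domain, namely those that start at chr7:150000001, chr7:149950001 and chr7:151000001, with 9.8, 9.6 and 8.2 kb. In the same bins wild-type round spermatid islands covered 7.0, 4.8 and 9.0 kb, BD1del spermatocyte islands 4.8, 3.8 and 4.0 kb, and BD1del round spermatid islands 2.8, 0.2 and 2.8 kb. The fullest bins of wild-type round spermatids started at chr7:150800001 and chr7:151000001, with 9.0 kb each, and at chr7:150000001, and the fullest 3 bins held 27.9% of the covered bases in that list.

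The longest island of wild-type spermatocytes, chr7:149934201-149939800, spanned 5600 bases with 164 ChIP and 242 control reads and a fold of 1.21 (0.988 to 1.48). The island with the most ChIP reads, chr7:149958001-149962400, held 175 ChIP and 161 control reads, a fold of 1.94 (1.56 to 2.42), and it met islands of all other lists. In wild-type round spermatids the longest island, chr7:150852201-150856000, was also the one with the most ChIP reads, 88 against 171 control reads, at a fold of 1.95 (1.49 to 2.54). These long islands were thus only weakly above control. Of the 16 wild-type spermatocyte islands 10 (62.5%) had a fold under 2, against 68.2% over the autosomes. In wild-type round spermatids these were 9 of 61 (14.8%) against 22.9%. In BD1del they were 2 of 64 (3.1%) against 5.82% in spermatocytes, and 1 of 138 (0.725%) against 1.26% in round spermatids. Such islands were thus no more frequent in the domain than over the autosomes.

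Where at least 10 control reads backed a wild-type spermatocyte island, the highest fold was 4.40 (2.69 to 7.39), at chr7:150734201-150735800, from 59 ChIP and 24 control reads, and no other list had an island there. The next was chr7:150134801-150135800, with a fold of 3.58 (2.07 to 6.36). In wild-type round spermatids that second place led the list: chr7:150134801-150135200 held 31 ChIP and 14 control reads, a fold of 8.39 (4.33 to 17.1). BD1del round spermatids had an island there too, chr7:150134801-150135000, with a fold of 7.90 (4.32 to 14.7), and BD1del spermatocytes had none. A single wild-type spermatocyte island reached a fold of 10, chr7:150482001-150482800 at 18.1 (8.36 to 46.8), from 71 ChIP reads and only 7 control reads. It was named after its values were seen, and no other list had an island there.

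BD1del round spermatids had a cluster of islands of high fold within 14.4 kb. The 6 islands of highest fold among those with at least 10 control reads all lay from chr7:150710001 to chr7:150724400, and together they held 611 ChIP and 110 control reads, a fold of 30.3. The leading one was chr7:150720001-150720400, with 115 ChIP and 11 control reads and a fold of 56.9 (30.7 to 117). Next to it chr7:150721401-150722200 held the most ChIP reads of any island of the domain in this list, 189 against 30 control reads, a fold of 34.3 (23.3 to 52.3). The others were chr7:150715201-150715600 at 41.6, chr7:150724001-150724400 at 28.2, chr7:150718001-150718400 at 22.9 and chr7:150710001-150710600 at 16.7.

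The 50-kb bin that holds this cluster and starts at chr7:150700001 had 12 islands and 814 ChIP reads in BD1del round spermatids, where the next bin of the domain had 261. Only 61 of 48295 autosomal bins (0.126%) had as many ChIP reads in islands in that list, and 0.0538% had as many islands. The bin held 18.1% of the ChIP reads of the domain's islands in BD1del round spermatids and 7.18% of their control reads. It was singled out for its read count after the values were seen, and 2 of its islands were among the results already known when the domain was chosen, so its rank is a description.

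BD1del spermatocytes had 5 islands in the same bin, with 251 ChIP and 181 control reads in all. In that list 6.68% of autosomal bins had as many islands and 3.98% as many ChIP reads in islands. Each of the 5 islands met a BD1del round spermatid island. The spermatocyte fold was the lower one in 3 of these 5 pairs and the higher one in 2. The 3 pairs had folds of 7.89 and 16.7, 15.9 and 56.9, and 6.20 and 34.3 in spermatocytes and spermatids, and the others 7.64 and 7.56, and 7.97 and 6.27. At chr7:150720001-150720400, an island of identical coordinates in both lists, BD1del spermatocytes had 45 ChIP and 16 control reads, a fold of 15.9 (8.79 to 30.1), against 56.9 (30.7 to 117) in round spermatids. The island of most ChIP reads of the domain in BD1del spermatocytes also lay here, chr7:150721401-150723000, with 88 ChIP and 80 control reads and a fold of 6.20 (4.53 to 8.50). Wild-type round spermatids had no island in the bin, as was the case for 25.2% of autosomal bins in that list. Wild-type spermatocytes had 1, the island at chr7:150734201-150735800 described above, which lies outside the cluster. In that list 40.8% of autosomal bins had at least 1 island.

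**Figure D4:**
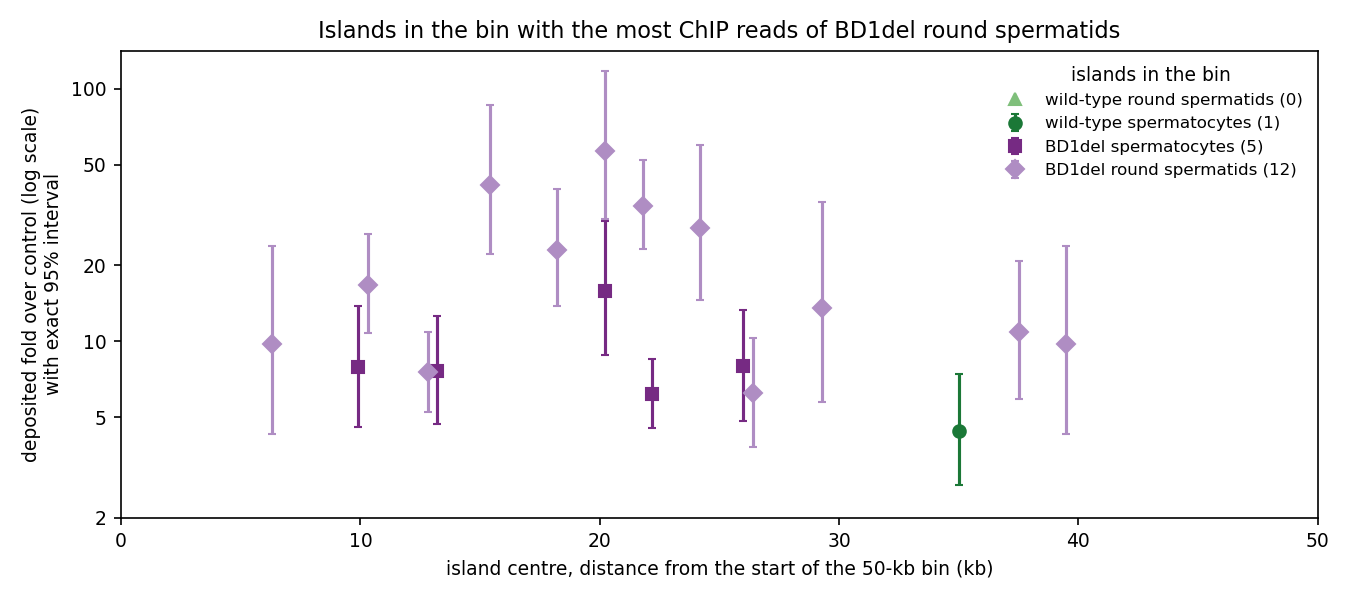
Points are the islands of the 50-kb bin that starts at chr7:150700001, placed by their centre in kb from the start of the bin (horizontal axis) and by their deposited fold on a log scale (vertical axis), with exact 95% counting intervals as bars. Islands of BD1del round spermatids reach 56.9, the 5 of BD1del spermatocytes lie between 6.20 and 15.9, and wild-type round spermatids have none.

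Elsewhere in the domain the highest fold of a BD1del spermatocyte island was 59.2, at chr7:150901001-150901200, from 21 ChIP and only 2 control reads. The following led among islands of this list with at least 10 control reads. They were chr7:150554201-150554400 at a fold of 16.6 (9.22 to 31.3), chr7:150561601-150562600 at 15.5, chr7:150064401-150064800 at 13.3 and chr7:150647401-150648400 at 11.6. The first of these was also an island of BD1del round spermatids, with nearly the same ChIP count, 46 against 47, but 63 control reads against 16, so that its fold there was 3.98. The difference in fold at this place thus lay in the control count. The longest islands of BD1del spermatocytes were chr7:150051601-150055200 and chr7:149715001-149718400, of 3600 and 3400 bases, with folds of 2.49 and 2.54. In BD1del round spermatids the longest was chr7:150324001-150326200, of 2200 bases, with a fold of 3.37, and no other list had an island there.

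Islands of a fold of at least 10 were 1 of 16 (6.25%) in wild-type spermatocytes, against 1.47% of the whole list, and 5 of 61 (8.20%) in wild-type round spermatids, against 6.51%. In BD1del spermatocytes they were 14 of 64 (21.9%, 12.5 to 34%), against 10.5% of the whole list and 10.2% of the flank. In BD1del round spermatids they were 62 of 138 (44.9%, 36.5 to 53.6%), against 33.6% of the whole list and 39.2% of the flank. The intervals of both BD1del lists lay above the share of their whole list, and those of both wild-type lists held it. Only that of BD1del spermatocytes lay above the share of the flank, whose own interval (5.37 to 17.1%) overlapped it. Neighbouring islands are not independent, and the domain was chosen with high-fold islands of BD1del round spermatids inside it already known. These positions are therefore descriptions. In BD1del round spermatids 8 of the 62 islands lay in the 50-kb bin of the cluster. Without that bin the share was 42.9% (34.1 to 52.0%), still above that of the whole list. Many of the folds of at least 10 rested on few control reads. With at least 10 control reads both BD1del intervals only just took in the share of the whole list. The BD1del shares were then 13.8% (6.15 to 25.4%) against 6.22% of the whole list and 20% (12.5 to 29.5%) against 12.6%. The flank of the BD1del lists had 6.19% in spermatocytes and 19.1% in round spermatids, the latter near the share of the domain. In wild type the domain shares were 0 of 15 and 0 of 55 islands, with exact upper limits of 21.8% and 6.49%. With at least 10 control reads the whole wild-type lists had only 0.317% and 0.671%, and the flank 0 of 38 and 0 of 79.

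Most stretches of the domain were marked in a single list, as were most islands over the genome in 2 of the 4 lists. Islands that met no other list were 3 of 16 (18.8%) in the domain against 24.2% of the whole list for wild-type spermatocytes, 38 of 61 (62.3%) against 48.9% for wild-type round spermatids, 44 of 64 (68.8%) against 67.4% for BD1del spermatocytes, and 113 of 138 (81.9%) against 77.7% for BD1del round spermatids. The shares in the domain were thus near those of the whole lists, with the widest gap in wild-type round spermatids, where the flank had 58.8%. Islands of any list covered 236.8 kb of the domain, 13.9% of it, and 201.0 kb of this was covered in a single list. Joined where they overlap, the 279 islands formed 229 stretches, of which 192 held islands of 1 list, 30 of 2 lists, 3 of 3 lists and 4 of all 4 lists. BD1del round spermatids alone accounted for 110 of the stretches, BD1del spermatocytes alone for 43, wild-type round spermatids alone for 36 and wild-type spermatocytes alone for 3. Among the stretches of 2 lists the most frequent kinds were both BD1del lists, with 13, and both round spermatid lists, with 8. Both wild-type lists shared 7. These counts of stretches have no genome-wide share beside them. They are not scaled for the size of the lists, which ran from 16 to 138 islands in the domain, so they do not rank how much the lists share.

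Islands of all 4 lists shared a base in 3 places, and folds were low in each. At chr7:150024001-150025600 the islands of wild-type spermatocytes and round spermatids had folds of 1.87 and 1.72, and those of BD1del spermatocytes and round spermatids 2.63 and 2.27. At chr7:149962001-149962200 the folds were 1.94, 2.61, 2.10 and 3.36, and at chr7:151037801-151038200 they were 1.35, 1.66, 2.31 and 2.70. Control reads were dense in the last 2 places. The single-window islands at chr7:149962001-149962200 had 145 control reads per kb in wild-type round spermatids and 170 in BD1del round spermatids, and the BD1del spermatocyte island at chr7:151037801-151038200 had 237.5, where the median island of the domain had 28.3, 42.3 and 46.9 in these lists. The part that control density plays in these shared islands was not tested.

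The stages shared most of the few wild-type spermatocyte islands. Of these, 11 of 16 (68.8%, 41.3 to 89.0%) met a wild-type round spermatid island, against 58.9% of the whole list and 48.7% of the flank. In the other direction 13 of 61 (21.3%, 11.9 to 33.7%) were met, against 30.3% and 21.2%. With only islands of an FDR of at most 1e-10, 2 of 8 wild-type spermatocyte islands met one of round spermatids. In BD1del the overlap took in 17 of 64 spermatocyte islands (26.6%, 16.3 to 39.1%), against 24.2% and 16.1%, and 17 of 138 round spermatid islands (12.3%, 7.34 to 19%), against 13.9% and 6.29%. The interval of the domain held the share of the whole list in each of these 4 cases, and in BD1del it lay above the share of the flank, whose own interval overlapped it.

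Between genotypes, few islands of the domain overlapped. In spermatocytes these were 4 of 16 wild-type islands (25%, 7.27 to 52.4%), against 35% of the whole list and 20.5% of the flank, and 4 of 64 BD1del islands (6.25%, 1.73 to 15.2%), against 11.9% and 6.78%. In round spermatids they were 10 of 61 wild-type islands (16.4%, 8.15 to 28.1%), against 29.1% and 21.2%, and 10 of 138 BD1del islands (7.25%, 3.53 to 12.9%), against 11.2% and 6.29%. The interval of the domain held the share of the flank in all 4 cases and that of the whole list in 3, the exception being wild-type round spermatids, whose share was lower. The whole lists include the sex chromosomes, and the flank does not.

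**Figure D5:**
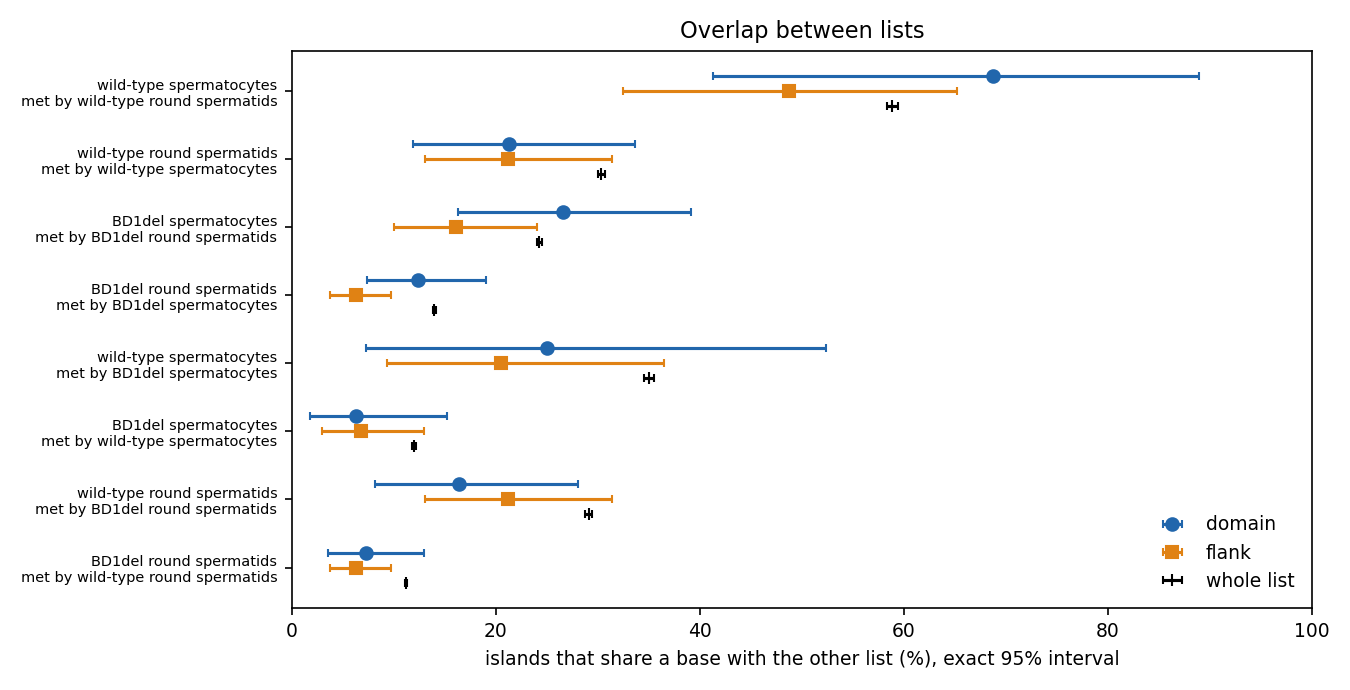
Points give the percentage of islands of the first list that share a base with an island of the second (horizontal axis) for the domain, the flank and the whole list, with exact 95% counting intervals as bars. Domain and flank intervals overlap in all 8 comparisons, and the share is highest for wild-type spermatocytes met by wild-type round spermatids, at 68.8% in the domain.

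Where islands of 2 lists overlapped in the domain, the later stage and the BD1del genotype mostly had the higher fold. The round spermatid fold was higher in 11 of 13 overlapping pairs in wild type and in 12 of 17 in BD1del. The BD1del fold was higher in 4 of 4 pairs in spermatocytes and in 8 of 10 in round spermatids. In the flank the same counts were 15 of 19, 14 of 19, 6 of 8 and 15 of 18, so the domain did not stand apart. Folds of different lists rest on different control depths and island lengths.

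Across the 34 bins the covered bases of the lists were related weakly except between the wild-type stages, which had a Spearman correlation of 0.48. It was 0.35 between wild-type and BD1del spermatocytes, 0.20 between the BD1del stages and 0.16 between wild-type and BD1del round spermatids. Over the 70 bins of the flank the values were 0.48, -0.02, 0.05 and -0.09. Bins share the genome's mappability and base composition, so these values are descriptions.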

How the data were processed

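Per the submitters' processing notes, the islands are SICER calls on the mm9 build. The names of the lists give a window of 200 and a gap of 600 bases. The sources used here do not give the SICER version, the aligner, the read filters or which input served as control. The list labels name different read sets for the 2 genotypes (F3 tags for wild type, F3 and F5 tags for BD1del), so the read set moves with genotype. Each list was deposited with ChIP and control read counts per island, without normalization, a p-value and FDR, and a fold, which is the library-scaled ratio of both counts. The library ratio was computed from counts and fold.

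Coordinates are 1-based. Islands were assigned by their start, and overlap means at least 1 shared base. Intervals are exact (Clopper-Pearson), and that of a fold is conditional on the summed count. Named islands are, per list, the 5 highest folds among islands with 10 or more control reads, the 3 longest, the 3 with most ChIP reads, and places shared by all 4 lists. The text names those that matter, and others are said to be named later. The domain and these rules were chosen with earlier results of these data known, and the windows of 1.7 Mb and the rank of single bins were added after the data were examined. The code for overlap and covered bases was checked on simulated islands, and that for the exact intervals was not. Alternatives were the FDR, fold, list length, control reads, merging, overlap, flank and bin width. Python 3.11.15, pandas 2.3.3 and scipy 1.17.1 were used.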

Additional observations from a re-analysis of the deposited data

Results flagged for a closer look

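The covered share of the domain over that of its flank was above 1 in both wild-type lists (1.11 in spermatocytes, 1.44 in round spermatids) and below 1 in both BD1del lists (0.945 and 0.810), that is, in opposite directions in the 2 genotypes, and the difference was not tested. It did not hold under every setting: with an FDR of at most 1e-10 the ratios were 2.81, 2.00, 1.18 and 0.799, with a fold of at least 2 they were 1.21, 1.42, 1.003 and 0.826, and with 10000 islands per list they were 2.15, 1.90, 0.869 and 2.25. Control reads per kb of island, domain over flank, also went opposite ways, at 0.842 and 0.852 in wild type and 1.04 and 1.05 in BD1del, and this difference was not tested either.

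The covered share of the domain was 1.49 times as high in BD1del as in wild-type spermatocytes but 0.817 times as high in BD1del as in wild-type round spermatids, so the genotypes stood in opposite order at the 2 stages, which was not tested. In the flank the ratios were 1.75 and 1.45, and over the autosomes 1.79 and 1.17. The opposite order was lost under 3 settings, in which BD1del round spermatids had the larger covered share: 3.18% against 1.21% with an FDR of at most 1e-10, 4.25% against 3.92% with a fold of at least 2, and 0.541% against 0.282% with 10000 islands per list. In spermatocytes BD1del had the larger share in the first 2 of these settings, and with 10000 islands the smaller one, at 0.224% against 1.14%, so that the order was then opposite the other way round.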

How the results depend on the processing

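With 1 library per group, no library could be left out, and values were compared with their counting interval (correlations: a change of more than 0.1). Of 132 alternative values, 94 stayed within it and 38 moved. This count is no measure of stability, because the direction of some changes was fixed by the setting. A threshold that removes islands can only lower a covered share, and a fold limit of 2 cannot lower the share of high folds. Intervals from few islands were also wide, as for the 16 of wild-type spermatocytes. Restricting islands to an FDR of at most 1e-10 gave a domain share of domain-plus-flank islands of 50% and 51.2% in the wild-type lists, covered shares of 1.14%, 1.21%, 2.89% and 3.18% (lists in the order of the report), islands of high fold of 22.7% and 54.9% in wild-type and BD1del round spermatids, 25% of wild-type spermatocyte islands met by round spermatids, and 2.65% of BD1del round spermatid islands met by wild type. A fold of at least 2 gave covered shares of 0.635% and 3.92% in wild type, stage overlaps in wild type of 33.3% and 5.77%, and 1.61% of BD1del spermatocyte islands met by wild type. Holding each list to 10000 islands gave domain shares of 50% and 53.3% in BD1del, covered shares of 1.14%, 0.282%, 0.224% and 0.541%, high folds of 50%, 85.7% and 75% in all but wild-type spermatocytes, a stage overlap of 25% of wild-type spermatocyte islands, and 0% in all 4 genotype overlaps (0 of 8, 7, 8 and 16 islands). With at least 10 control reads, 3.76% of the domain was covered in BD1del round spermatids, and high folds were 0% in both wild-type lists and 20% in BD1del round spermatids. The stage overlap in BD1del stayed within its interval throughout. Without the 50-kb bin that starts at chr7:150700001, an alternative added after the data were seen, high folds were 42.9% and the summed fold of the domain 6.39 in place of 7.25 in BD1del round spermatids. Bins of 25 kb gave correlations of 0.37 between the wild-type stages, 0.23 between spermatocytes of both genotypes and 0.0641 between the BD1del stages, and bins of 100 kb gave 0.0705 for wild-type spermatocytes with BD1del round spermatids and -0.16 for wild-type round spermatids with BD1del spermatocytes. Against all of chromosome 7, of which the domain is 1.14% by length, it held 1.09%, 1.64%, 1.15% and 1.34% of the islands. No paired analysis was possible because each group had 1 library.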
